A study of Rattus norvegicus with 6 samples.

Results

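ASCRPR002495 and ASCRPR011989 are 2 circular RNAs (circRNAs) measured in the rat lung, out of 14145 circRNAs on the array. They were chosen by their measured values: both were about 4-fold lower in lungs of rats given monocrotaline than in saline lungs, and both were still marked well above background on all 6 arrays. That mark is the scanner software's yes-or-no call that a spot is clearly brighter than its background. By that mark the lower level in the monocrotaline lungs is a measurement and not a bound. The level of ASCRPR011989 in those lungs came close to the detection limit. Each of the 2 circRNAs has 1 spot per array, no spot of either was marked as an outlier, and both passed the filter on dim signals. Because this contrast chose them, their difference between the groups is described below and not tested.

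The samples were lung tissue of male rats whose age the labels give as 6 weeks. The MCT group received 1 intraperitoneal dose of monocrotaline (MCT) at 60 mg per kg, the saline group an equivalent volume of saline or solvent, and the lungs were perfused with buffer and taken 28 days later. Each group has 3 samples with 1 array each. The labels name neither the strain nor whether each sample is a separate animal, so the SDs below measure the spread between these samples, which may be technical. Total RNA was digested with RNase R before labelling, and all signals are of what that digestion left.

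A circRNA forms when the splicing machinery joins the end of an exon back to an upstream exon start, which closes the RNA into a ring. With no free ends, such rings resist exonucleases such as RNase R and tend to outlast the linear transcript of the same gene. Some circRNAs bind microRNAs or proteins, and for many no function is known. Monocrotaline is a plant alkaloid that the liver turns into a reactive form, which injures the endothelium of lung vessels and leads to pulmonary arterial hypertension in rats. The sources used here pair neither circRNA with a host gene, a genome position or a sequence, so the results below concern 2 array IDs only.

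ASCRPR002495 was bright in every saline lung and several-fold dimmer in every MCT lung. Its processed signal is the brightness in fluorescence units after the software subtracted background and evened out slow gradients, with no scaling between arrays. It read 273 units in saline 1, 188 in saline 2 and 217 in saline 3. The MCT lungs read 22.1 (MCT 1), 47.5 (MCT 2) and 28.4 units (MCT 3). The groups did not overlap: the dimmest saline array was 3.96-fold above the brightest MCT array before any scaling. The software's own error of a processed signal was 10.0% on each saline array and between 10.8% and 13.7% on the MCT arrays. That error concerns 1 spot and does not measure the spread between samples.

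ASCRPR011989 showed the same split at signals that come close to the detection limit. Its processed signal read 72.5, 83.0 and 133 units in saline 1, 2 and 3. In MCT 1, 2 and 3 it read 14.0, 15.9 and 9.98 units. Again no MCT array reached any saline array, with a 4.56-fold gap between the closest pair before scaling. The software's error was 10.0% to 10.2% of the signal in saline lungs but 15.5% to 20.3% in MCT lungs. Of the 7323 circRNAs that were well above background on all 6 arrays and had enough unmarked spots to be tested, 959 also lay lower on every MCT array than on any saline array before scaling (13.1%).

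**Figure D1:**
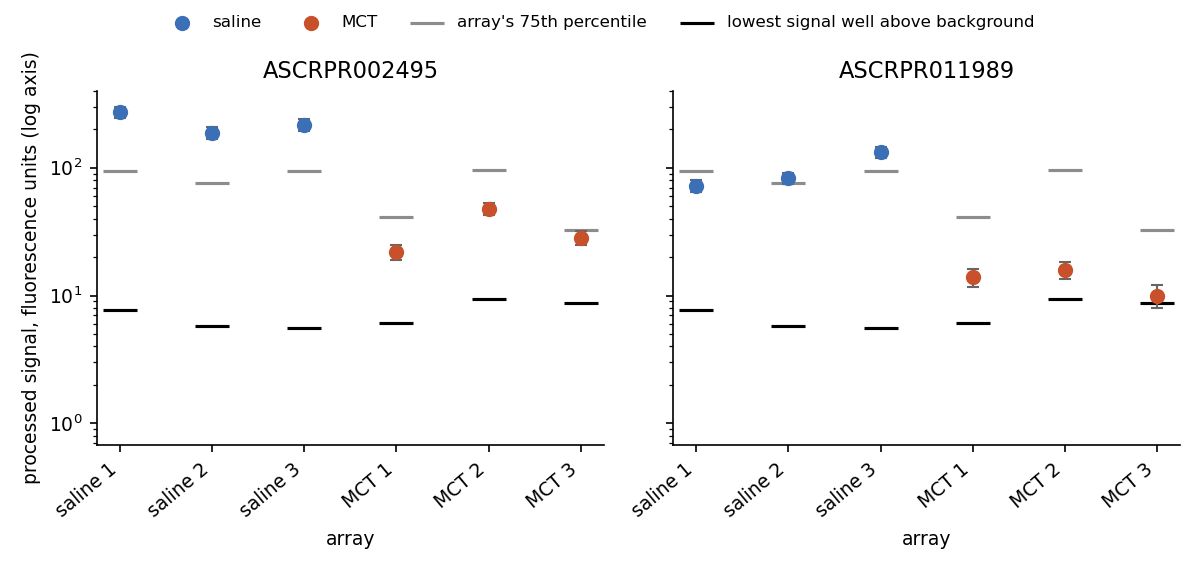
Processed signal (fluorescence units, log axis) of ASCRPR002495 and ASCRPR011989 on each array, with the software's error as bars; grey dashes are each array's 75th percentile over all probes and black dashes its lowest signal marked well above background. Both circRNAs are lower on all 3 MCT arrays, and on MCT 3 ASCRPR011989, at 9.98 units, lies just above the lowest detected signal of 8.67 units.

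How firmly each circRNA was measured in the MCT lungs differed. ASCRPR002495 stood 3.62-fold, 5.06-fold and 3.27-fold above the lowest signal marked well above background in MCT 1, 2 and 3, against 32.5-fold to 39.0-fold on the saline arrays. ASCRPR011989 stood only 2.29-fold, 1.69-fold and 1.15-fold above that lowest signal in MCT 1, 2 and 3, against 9.47-fold to 23.8-fold in saline lungs. On MCT 3 only 416 circRNAs marked as well above background were dimmer than ASCRPR011989. Its mark therefore holds on all 6 arrays, but on MCT 3 by a margin smaller than the 20.3% error of the signal. Negative control spots had an SD of 1.05 to 1.52 units after background subtraction, depending on the array.

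To compare arrays, each array's 75th percentile over all probes was subtracted from its log2 signals, so that 0 is that percentile. On this scale ASCRPR002495 read 1.54, 1.31 and 1.20 in the saline lungs. The MCT lungs read -0.91, -1.0 and -0.19. The saline values lay within 0.34 of each other and the MCT values within 0.81, with MCT 3 the highest of its group. The saline mean was 1.35 ± 0.17 and the MCT mean -0.70 ± 0.45 (both SD, n = 3). The log2 difference, MCT minus saline, was -2.05 ± 0.28 (SE), or 4.14-fold lower. Over the 9 pairs of a saline and an MCT array the fold ran from 2.62 to 5.82.

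On the same scale ASCRPR011989 varied more within both groups. It read -0.37, 0.13 and 0.49 in the saline lungs. The MCT lungs read -1.57, -2.58 and -1.70. Saline values spanned 0.86 and MCT values 1.01, with MCT 2 the lowest. The saline mean was 0.084 ± 0.43 and the MCT mean -1.95 ± 0.55 (both SD, n = 3). The log2 difference was -2.03 ± 0.41 (SE), or 4.09-fold lower, and over the 9 pairs of arrays the fold ran from 2.29 to 8.42. For the MCT lungs the order of spread depended on the scaling. Without scaling the log2 MCT values of ASCRPR011989 spanned 0.67, against 1.11 for ASCRPR002495. In the authors' deposited values the MCT SDs were 0.25 and 0.40. In the saline lungs ASCRPR011989 varied more there too, with unscaled ranges of 0.87 against 0.54 and authors' SDs of 0.37 against 0.16. In bulk lung tissue fewer cells that hold a circRNA and less of it per cell cannot be told apart.

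**Figure D2:**
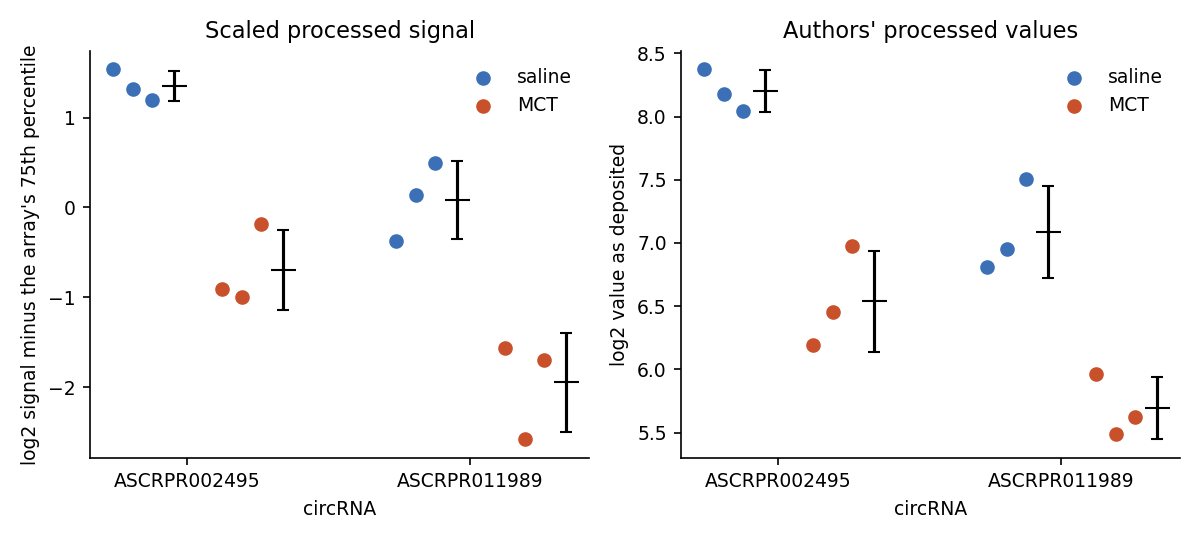
Log2 level of each circRNA per array (points), with the group mean and SD (bars, n = 3), as scaled processed signal (left) and in the authors' deposited values (right). In both panels and for both circRNAs all 3 MCT points lie below all 3 saline points; levels of different circRNAs are not comparable.

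Among the 7323 circRNAs, scaled groups lay apart with MCT lower for 403 (5.5%), and for 114 (1.56%) the difference was also at least 2-fold, ASCRPR002495 and ASCRPR011989 among them. Over all 11280 circRNAs well above background on at least 3 arrays, 287 (2.54%) met the last criterion. That count was 351, 346 and 919 without saline 1, 2 and 3, and 276, 861 and 745 without MCT 1, 2 and 3. At an adjusted p below 0.05 (limma, Benjamini-Hochberg, n = 3 against 3) 2 of the 11280 were lower (0.0177%), and neither of them was ASCRPR002495 or ASCRPR011989. The 2 became 1 without saline 3 and 12 without MCT 2. As the rule used this contrast, these shares are background and nothing is read from the membership. The median log2 difference was -0.041 over the 11280 and 0.060 over the 7323.

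Many circRNAs had a difference as large, but mostly with groups that overlapped. Ranked by log2 difference among the 7323, ASCRPR002495 was at rank 78 and ASCRPR011989 at rank 82. Of the 77 circRNAs with a larger negative difference than ASCRPR002495, 56 had overlapping groups. The next larger difference, of ASCRPR011414, was -2.06 with overlapping groups, at SDs of 1.11 in saline and 0.93 in MCT lungs. The next smaller one, of ASCRPR000667, was -2.05 with a gap of 0.30 between the groups. Around ASCRPR011989 stood ASCRPR003483 at -2.04 and ASCRPR013584 at -2.03, both with overlapping groups. The gap between the lowest saline and the highest MCT value was 1.39 for ASCRPR002495 and 1.19 for ASCRPR011989, ranks 2 and 3 among the 7323 by that measure. The size of the difference was part of how the members were picked, and the gap comes from the same contrast. None of these ranks is support for them.

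**Figure D3:**
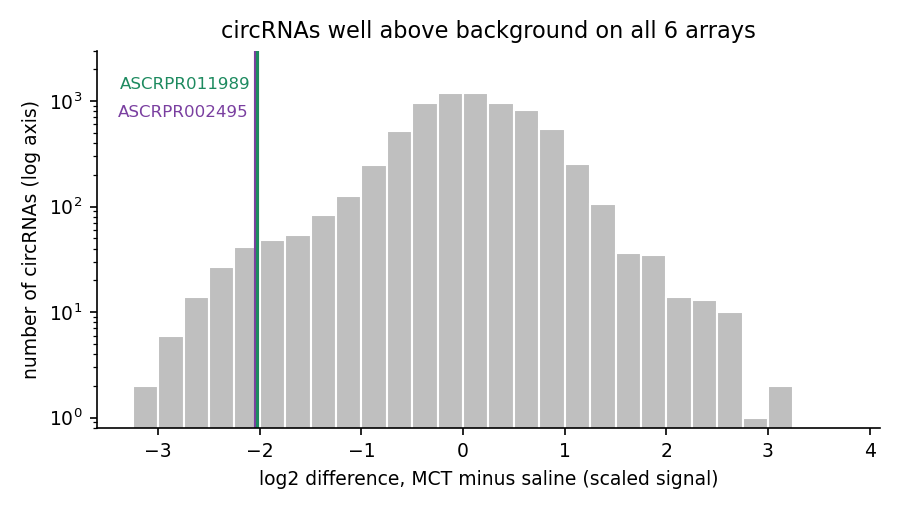
Number of circRNAs (log axis) by log2 difference, MCT minus saline, in steps of 0.25, for the 7323 circRNAs well above background on all 6 arrays; coloured lines mark the 2 circRNAs. Both lines, at -2.05 and -2.03, lie in the lower tail, where 77 circRNAs lay further out than ASCRPR002495.

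A circRNA's place within its own array does not change when the array is scaled by any number. ASCRPR002495 was brighter than 89.5%, 88.3% and 88.2% of the circRNAs in saline 1, 2 and 3, and than 60.6%, 58.4% and 72.4% in MCT 1, 2 and 3. ASCRPR011989 was brighter than 69.4%, 76.7% and 81.4% on the saline arrays and than 48.9%, 31.0% and 47.8% on the MCT arrays. For both, every MCT array gave a lower place than every saline array, as it did for 525 of the 7323 circRNAs well above background throughout (7.17%). The saline places of ASCRPR002495 hardly moved, whereas those of ASCRPR011989 spread over more than 10 percentage points.

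**Figure D4:**
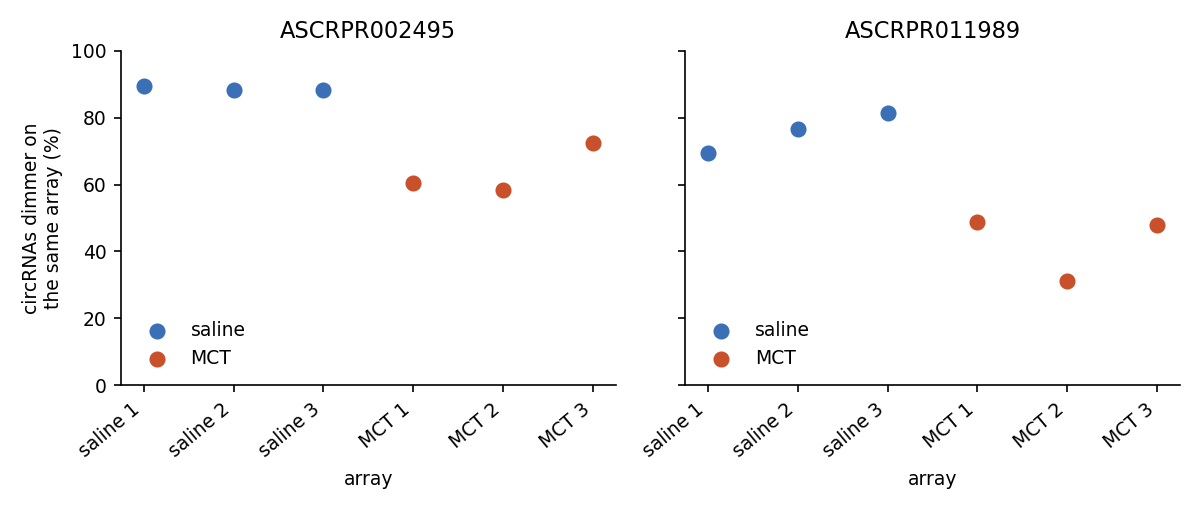
Share of circRNAs (%) dimmer than ASCRPR002495 (left) and ASCRPR011989 (right) on the same array. The place of ASCRPR002495 falls from at least 88.2% in saline to at most 72.4% in MCT lungs, and that of ASCRPR011989 from at least 69.4% to at most 48.9%.

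The arrays differed in brightness, and scaling bears on the size of both differences. The 75th percentile of the processed signal lay between 75.6 and 94.5 units on the saline arrays, at 41.4 and 32.3 units on MCT 1 and MCT 3, and at 95.2 units on MCT 2. On MCT 2, the array as bright as the saline ones, the unscaled signal was 4.70-fold below the saline mean for ASCRPR002495 and 5.84-fold below it for ASCRPR011989, while the median of the 7323 circRNAs differed there by 0.19 on the log2 scale. With no scaling, the dim arrays MCT 1 and MCT 3 gave 10.1-fold and 7.88-fold for ASCRPR002495, and 6.65-fold and 9.30-fold for ASCRPR011989. Scaled, the same arrays gave 4.79-fold and 2.91-fold for the first and 3.14-fold and 3.43-fold for the second, and MCT 2 gave 5.11-fold and 6.35-fold. Scaling thus turned the order within the MCT group: unscaled, MCT 2 had the highest signal of both circRNAs, and scaled, the lowest.

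Without scaling both differences were larger. ASCRPR002495 then differed by -2.85 (7.21-fold) and ASCRPR011989 by -2.83 (7.12-fold), but the median of the 7323 circRNAs also shifted, by -0.74. With the 50th or 90th percentile, a percentile over probes detected on all 6 arrays, quantile normalization or cyclic loess in place of the 75th percentile, both differences stayed between -2.06 and -1.99. Scaling on the 20 linear transcript probes detected on all 6 arrays gave -1.94 and -1.92. Scaling on the 1 spike-in control probe that was detected in all its spots gave -2.78 and -2.76, and the labels do not say that spike-in RNA was added.

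Both other background treatments that were run gave smaller differences for both circRNAs. The median brightness of the ASCRPR011989 spot on MCT arrays 1 to 3 was 40, 40.5 and 32 units, against 16.5, 21 and 20 units in its local surround. Before any detrending the software's background-subtracted signal of those spots was 12.7, 15.9 and 10.0 units. That lay 27.3, 24.6 and 22.0 units below their median brightness. With the median spot signal and no background correction, ASCRPR002495 was 2.95-fold and ASCRPR011989 2.08-fold lower. With normexp background correction, which here adds an offset of 50 units to each signal, followed by quantile normalization, they were 2.27-fold and 1.77-fold lower.

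In the authors' deposited log2 values the differences were also smaller. ASCRPR002495 stood at 8.37, 8.18 and 8.05 in saline lungs and at 6.19, 6.45 and 6.97 in MCT lungs, with means of 8.20 ± 0.16 and 6.54 ± 0.40 (both SD, n = 3). ASCRPR011989 stood at 6.81, 6.95 and 7.50 in saline and at 5.97, 5.49 and 5.62 in MCT lungs, with means of 7.09 ± 0.37 and 5.69 ± 0.25 (both SD, n = 3). The differences were -1.66 (3.16-fold) and -1.40 (2.63-fold). How the authors treated the background is not given in the sources used here. Under each of the 13 other ways of scaling or correcting the values that were run, the groups still did not overlap for either circRNA. The smallest gap was 0.78 for ASCRPR002495, with normexp, and 0.47 for ASCRPR011989, with no background correction. All of these reuse the 6 arrays that chose the 2 circRNAs. Of the 7323 circRNAs, 13.1% also lay apart with MCT lower without scaling, and 5.5% in the main setting. The share under the other treatments is not given here.

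**Figure D5:**
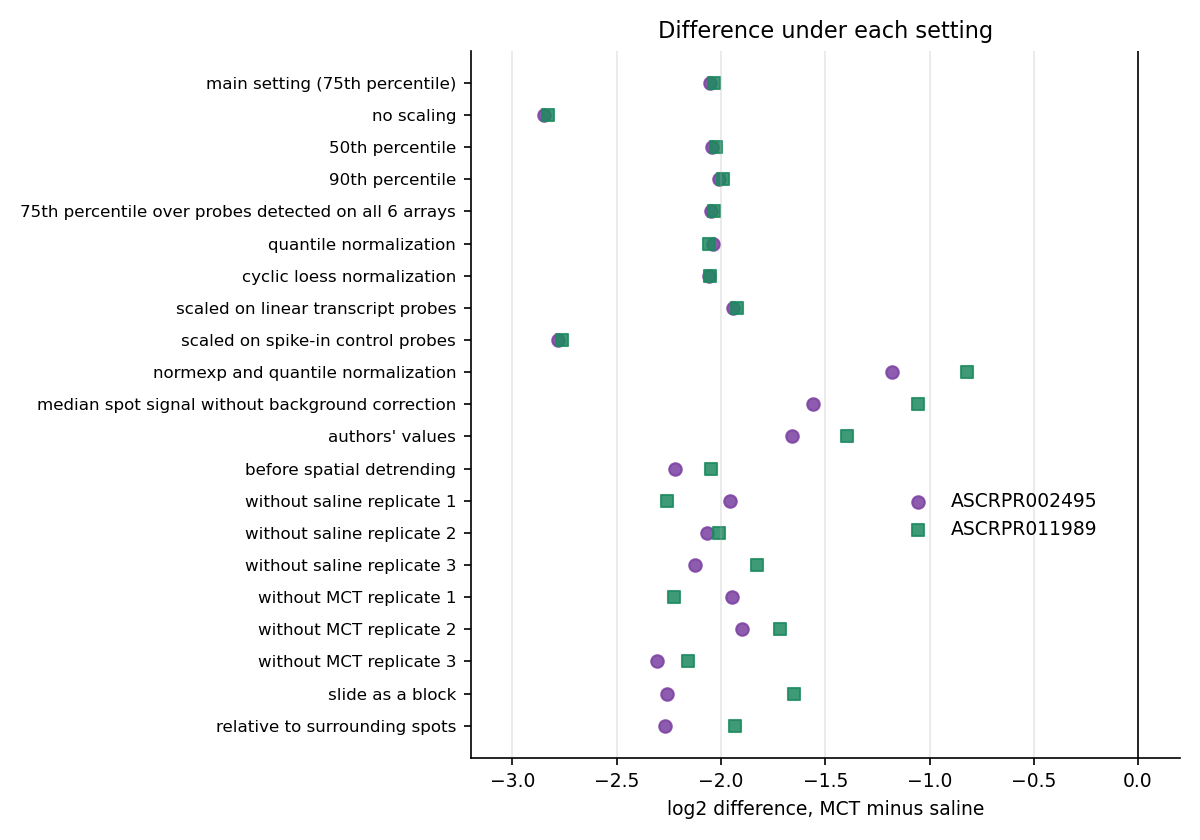
Log2 difference, MCT minus saline, of ASCRPR002495 (circles) and ASCRPR011989 (squares) under the main setting and the drawn alternatives. These change the scaling, the background treatment, the arrays used or a term for the scan, labelled slide. All values lie below 0, from -2.85 without scaling to -0.82 for ASCRPR011989 with normexp and quantile normalization.

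In the main setting the 2 circRNAs had like mean differences. Within each group of 3 arrays, the arrays did not stand in the same order for both. The log2 ratio of ASCRPR002495 to ASCRPR011989, which no scaling by a single number can alter, was 1.91, 1.18 and 0.71 in saline 1, 2 and 3 and 0.66, 1.58 and 1.51 in MCT 1, 2 and 3. The group means of this ratio, 1.27 ± 0.61 in saline and 1.25 ± 0.51 in MCT lungs (SD, n = 3), differed by -0.018 ± 0.46 (SE), with a 95% interval of -1.29 to 1.25. That interval is wide enough to hold a change of more than 2-fold either way. With 1 array left out in turn the value ran from -0.30 to 0.30. The ratio changed by -0.51 with no background correction and by -0.36 with normexp, so the 2 differences were less alike there. Within the saline group the arrays stood in opposite order, with saline 1 the highest for ASCRPR002495 and the lowest for ASCRPR011989. Relative to its group mean, saline 1 was at 0.19 for ASCRPR002495 and at -0.46 for ASCRPR011989, and saline 3 at -0.15 and 0.41. Within the MCT group MCT 2 was the lowest for both, at -0.30 and -0.63 from the group mean, and MCT 1 was at -0.21 for the first and at 0.38 for the second.

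Both spots lie in an outer column of the array, on opposite sides. ASCRPR002495 is in row 128 of 192 and column 82 of 82, and ASCRPR011989 in row 10 and column 1. The software's detrending, which evens out slow gradients of brightness across an array, had changed the spots unequally. It raised ASCRPR002495 by 25.7% on MCT 1 and by 8.88% on saline 3, and ASCRPR011989 by 22.2% on saline 2 and by 10.2% on MCT 1. On saline 1 and MCT 2 the signals before and after detrending were equal to within rounding. From the signals before detrending ASCRPR002495 was 4.67-fold and ASCRPR011989 4.14-fold lower.

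The tested circRNAs around each spot had differences centred near 0, but the surroundings were not level on every array. Within 10 rows and 5 columns of ASCRPR002495 there were 89 tested circRNAs with a median log2 difference of -0.018, and around ASCRPR011989 there were 75 with a median of -0.0032. None of these 89 and none of these 75 had a difference as low as the circRNA in their midst. As the 2 circRNAs were chosen for a low difference, at ranks 113 and 118 of 11280, nothing is read from that. The 5th percentile of the differences was -0.76 around ASCRPR002495 and -1.18 around ASCRPR011989. The median scaled level of all 109 circRNA spots around ASCRPR002495 was -1.82, -1.85 and -1.67 in saline 1, 2 and 3 and -1.71, -1.72 and -1.26 in MCT 1, 2 and 3, so that its mean was 0.22 higher in MCT lungs. MCT 3 stood highest there, and it was also the MCT array with the highest scaled level of ASCRPR002495 itself. For the 98 spots around ASCRPR011989 the mean changed by -0.099. Relative to these medians on each array, ASCRPR002495 was 4.82-fold lower in MCT lungs and ASCRPR011989 3.82-fold. Over the 267 tested circRNAs of both outer columns the median difference was -0.0078, and 10 of them (3.75%) lay apart and at least 2-fold lower, the 2 described here included, against 2.54% of all tested circRNAs. That difference between the shares was not tested.

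The arrays carry 2 scan identifiers, and the groups were not spread evenly over them. Only this identifier was used to group the arrays, and it names a scan, not a slide. The headers give saline 1 to 3 and MCT 1 the same scan, and MCT 2 and MCT 3 another that held no saline array of this series. On the shared scan the difference rests on MCT 1 alone, at -2.26 (4.79-fold) for ASCRPR002495 and -1.65 (3.14-fold) for ASCRPR011989. On the other scan, without a saline array beside them, MCT 2 and MCT 3 were 5.11-fold and 2.91-fold below the saline mean for the first. For the second they were 6.35-fold and 3.43-fold below it. With 1 array left out in turn, the difference ran from 3.73-fold to 4.95-fold for ASCRPR002495 and from 3.28-fold to 4.79-fold for ASCRPR011989.

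Few circRNAs shared the pattern of either over the 6 arrays. Across arrays, Pearson's r on the scaled values was above 0.9 with ASCRPR002495 for 36 of 7315 circRNAs measured on every array and with ASCRPR011989 for 17. Such an r over 6 arrays in 2 groups rests mainly on the step between the groups and is given as a description. The most like ASCRPR002495 were ASCRPR004305 (r = 0.98), which was 2.17-fold lower in MCT lungs, and ASCRPR013075 (r = 0.97), 1.30-fold lower. The most like ASCRPR011989 were ASCRPR010239 (r = 0.98), 1.12-fold lower, and ASCRPR006708 (r = 0.97), 1.71-fold lower. In the authors' values r was 0.98 for ASCRPR004305 and 0.89 for ASCRPR006708, but 0.80 for ASCRPR013075 and 0.64 for ASCRPR010239. Between ASCRPR002495 and ASCRPR011989 r was 0.91. All 4 had a smaller step than the circRNA they resembled.

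Across the series, 55.1% to 84.5% of circRNAs per array lay well above background, no circRNA spot was saturated, and the net signal of negative controls, before background subtraction, averaged 16.3 to 19.6 units at the same detector voltage. MCT 1 and MCT 3 gave the lowest shares, 63.1% and 55.1%. The array names 39 of its 62 linear transcript probes through RefSeq, and none of 23 markers of lung cell types was among them, so the tissue label and any shift in cell types could not be checked here.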

How the data were processed

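CircRNA was measured in 3 saline and 3 MCT lung samples, 1 array each of 1 colour (Cy3). The deposited intensity files were written by version 11.0.1.1 of Agilent's Feature Extraction software (file headers). They hold background-subtracted and detrended processed signals, spot and surround brightness and detection marks. The authors' deposited table holds log2 values of 14145 circRNAs with column medians of 6.06 to 6.08 and a common maximum of 17.6; limma is named without a step or version in the submitters' processing notes, and the background treatment is not given in the sources used here. It served as an alternative.

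Control spots and outlier spots were left out, log2 signals averaged per probe (14227), and each array's 75th percentile subtracted, taken over all probes since 73.5% of values were well above background. All 11280 circRNAs well above background on at least 3 arrays, and with enough unmarked spots, entered a linear model per circRNA (limma 3.58.1, R 4.3.3) of group alone, with moderated variances and Benjamini-Hochberg adjustment over all of them. The SE printed for a difference is the unmoderated one of that fit. Only the model fit was tested on simulated data with known differences. The scaling, background and ranking steps were not tested in that way.

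The members, gene lists, tests and alternatives were chosen with earlier results of these data known. Named circRNAs are the 2 members, the 2 most correlated with each, and those ranked next to each by difference. The alternatives before detrending and relative to surrounding spots were added after seeing the files. The number of arrays, 3 a group, limits the precision. Arrays with the same replicate number, which the labels tie to nothing shared, had deviations correlated at -0.23, -0.36 and -0.45.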

Additional observations from a re-analysis of the deposited data

How the results depend on the processing

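The differences of ASCRPR002495 (-2.05) and ASCRPR011989 (-2.03) kept their direction under all 24 alternatives run. Of these, 3 (both filters and the replicate block) cannot change a difference, and the 2 scan settings give 1 value, which leaves 20. Of the 20, 15 moved each difference by less than its pooled SD between replicates (0.34 and 0.50). The others were no scaling (-2.85 and -2.83), the spike-in control probe (-2.78 and -2.76), normexp with quantile normalization (-1.18 and -0.82), no background correction (-1.56 and -1.05) and the authors' values (-1.66 and -1.40). With 1 array left out they ran from -2.31 to -1.90 and from -2.26 to -1.72. The ratio of the 2 changed by -0.61 with scan as a block or with only the shared scan, both of which rest on MCT 1. With 1 array left out it changed by -0.30 to 0.30. It changed by -0.51 without background correction, -0.36 with normexp, -0.34 relative to surrounding spots and -0.27 in the authors' values. Quantile normalization gave 0.018. The pooled SD of the ratio was 0.56. Signal over background limits ASCRPR011989 most, on MCT 3. Apart from what a setting's own construction shows, the cause was not tested.

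The count of circRNAs at least 2-fold lower with groups apart, 287, became 1255 without scaling, 2127 on the spike-in probe and 171 with normexp. It became 449 before detrending and 1475 on the shared scan alone (1 MCT array, assumed to vary like the saline ones). It became 114 among those detected on all 6 arrays, and 276 to 919 with 1 array left out. The count at an adjusted p below 0.05 by limma, 2, became 1 without scaling or before detrending, 4 on linear probes, 396 on the spike-in probe, 113 in slide 1 alone and 119 when slide was a block, and 1 to 12 with 1 array left out. The count was 0 by limma with normexp, without background correction, in the authors' values and among those detected on all 6 arrays. At an unadjusted p below 0.05 by limma, 628 of 11280, 603 of 11280, 695 of 11282 and 455 of 7323 were lower there. The main setting gave 749 of 11280 by that threshold. The replicate block, whose numbers pair no samples here, gave 12 and left both members' differences as they were.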

Other observations

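The array carries 10 spike-in control probes, of which 1 was well above background in all its spots on all 6 arrays. The geometric mean of its spots was 64.2, 39.7 and 36.4 units in saline 1, 2 and 3 and 38.3, 61.4 and 34.1 units in MCT 1, 2 and 3, and whether spike-in RNA was added is not stated in the labels.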
